A study of Rattus norvegicus with 9 samples.

Results

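The 4 transcripts described here, Hbb, Hba-a1, Hba-a2 and Alas2, are made at high level in developing red blood cells, and they were read in the left ventricle of 9 rats as a measure of the blood each tissue sample held. They are the rows of the expression table whose gene name is 1 of these 4 symbols, so 4 of its 35843 genes, and all 4 were found. They were chosen by their FPKM in these same rats, which stood apart, so their levels and fold changes are a description and carry no test. All rats were adult male Sprague-Dawley rats, and the tissue was collected 28 days after surgery. Group Sham (3 rats) had the chest operation without closing the artery, and group MI (3 rats) had that artery, the left anterior descending, tied off for good. Both received saline by gavage. Group MI + DAPA (1st d) (3 rats) had the same ligation and received dapagliflozin (DAPA), an inhibitor of the sodium-glucose cotransporter SGLT2, at 1 mg/kg a day by gavage from the first day. The methods describe removal of scar and use of the infarct border, with the corresponding site in Sham, for molecular work. For RNA-seq the methods and the labels name the left ventricle only. The study's results call the sequenced tissue normal myocardium in Sham and infarct myocardium in both ligated groups. Which part of the ventricle was sequenced is therefore not settled. The sources used here do not say how, or whether, blood was rinsed from the hearts.

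Adult haemoglobin, the oxygen carrier of red cells, is a tetramer of α-globin and β-globin chains, each holding 1 haem group. In the rat the α chains come from Hba-a1, Hba-a2 and close relatives, and the β chains from Hbb and close relatives that lie beside it. Alas2 encodes the erythroid form of 5-aminolevulinate synthase, the first and rate-limiting enzyme of haem synthesis, while Alas1 encodes the form used by other tissues. Young red cells that have lost their nucleus, the reticulocytes, still carry globin mRNA, so whole blood is rich in it. Globin transcripts in a solid tissue are therefore commonly read as a sign of blood within it. GATA1, KLF1 and NF-E2 are the classical factors that switch these genes on. GATA sites, CACCC boxes and CCAAT boxes are well-known elements of globin promoters.

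The promoters of the 4 genes, taken as the stretch just before each start, are shown as a description. Each is the 200 bases before the RefSeq start, on the rat build GRCr8, and all 4 symbols matched the RefSeq table. Hbb lies on the minus strand at chr1:167663722-167663921, Hba-a1 on the minus strand at chr10:15842581-15842780, Hba-a2 on the minus strand at chr10:15829139-15829338 and Alas2 on the plus strand at chrX:22895250-22895449. Capitals mark exact matches, on either strand, to the GATA-type words AGATAA and TGATAA, to CACCC, to CCAAT and to the TATA-like word ATAAA.
Hbb: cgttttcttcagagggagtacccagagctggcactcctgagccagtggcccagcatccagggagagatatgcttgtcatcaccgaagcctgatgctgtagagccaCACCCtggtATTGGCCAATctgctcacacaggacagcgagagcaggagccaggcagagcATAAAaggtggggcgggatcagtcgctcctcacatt
Hba-a1: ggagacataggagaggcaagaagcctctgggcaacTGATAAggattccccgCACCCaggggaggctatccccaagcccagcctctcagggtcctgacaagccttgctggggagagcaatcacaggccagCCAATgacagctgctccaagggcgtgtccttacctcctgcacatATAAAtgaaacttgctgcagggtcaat
Hba-a2: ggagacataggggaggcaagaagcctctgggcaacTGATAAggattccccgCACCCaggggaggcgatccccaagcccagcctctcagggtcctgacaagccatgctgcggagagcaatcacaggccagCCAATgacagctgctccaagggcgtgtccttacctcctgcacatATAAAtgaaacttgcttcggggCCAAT
Alas2: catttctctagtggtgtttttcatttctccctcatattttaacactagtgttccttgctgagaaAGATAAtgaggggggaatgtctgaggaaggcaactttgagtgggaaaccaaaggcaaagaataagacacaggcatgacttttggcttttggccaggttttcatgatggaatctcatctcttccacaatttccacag

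The Hba-a1 and Hba-a2 promoters were identical at 193 of 200 bases (96.5%), whereas Hba-a1 and Hbb were identical at 44 of 200, compared base by base without gaps. Both α-globin promoters held TGATAA 165 bases, CACCC 149 bases, CCAAT 71 bases and ATAAA 27 bases before the start, and that of Hba-a2 held a further CCAAT 5 bases before it. In the Hbb promoter CACCC lay 95 bases and ATAAA 36 bases before the start. CCAAT lay 81 bases before it and, on the opposite strand, 86 bases before it. In the Alas2 window the 1 match was AGATAA, 136 bases before the start. Of 33469 rat promoter windows of this length, 8.14% held AGATAA, 6.20% TGATAA, 42.9% CACCC, 29.2% CCAAT and 32.7% ATAAA. A match describes letters only and is not evidence of a bound site.

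In Sham and in MI + DAPA (1st d), globin expression differed far more between rats of the same group than between the groups' middle values. One Sham rat held several times the globin mRNA of its group, 1 rat of group MI + DAPA (1st d) held almost none, and the 3 MI rats were alike. Hbb (ENSRNOG00000058105) stood at 69.1, 1558 and 179 FPKM in Sham rats 1 to 3. FPKM are fragments scaled to transcript length and to a total for each library, so levels of different genes can be set side by side. That total was not the sum of the recovered reads: relative to it, the authors' divisor was 0.560 to 0.678 in Sham, 1.31 to 1.42 in MI and 1.04 to 1.35 in MI + DAPA (1st d), in relative units. In MI rats 1 to 3 it stood at 193, 279 and 166 FPKM, and in MI + DAPA (1st d) rats 1 to 3 at 2.57, 90.8 and 57.9 FPKM. The highest of the 9 values, in Sham 2, was thus 606 times the lowest, in MI + DAPA (1st d) 1.

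Hba-a1 (ENSRNOG00000029886), the most abundant of the 4, stood at 130, 2714 and 357 FPKM in Sham, 541, 776 and 431 FPKM in MI and 7.63, 266 and 119 FPKM in MI + DAPA (1st d). Hba-a2 (ENSRNOG00000047321) stood at 91.3, 1499 and 182 FPKM in Sham, 186, 247 and 170 FPKM in MI and 3.05, 132 and 58.2 FPKM in MI + DAPA (1st d). Both α-globin genes had their highest value in Sham 2 and their lowest in MI + DAPA (1st d) 1, as Hbb did. Alas2 (ENSRNOG00000000167) was about 2 orders of magnitude lower, at 0.546, 8.69 and 1.04 FPKM in Sham and 1.60, 1.88 and 1.43 FPKM in MI. Among treated rats it was not detected in rat 1, where 3 reads would have given 0.104 FPKM, and stood at 0.463 and 0.379 FPKM in rats 2 and 3. Its reads numbered 10, 156 and 16 in Sham, 54, 58 and 48 in MI and 0, 13 and 12 in MI + DAPA (1st d), so its ratios are the least precise of the 4. Alas2 mRNA too was highest in Sham 2 and lowest in MI + DAPA (1st d) 1. Between these its order of rats was not that of Hbb: Sham 3 was below MI 3 for Alas2 and above it for Hbb.

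**Figure D1:**
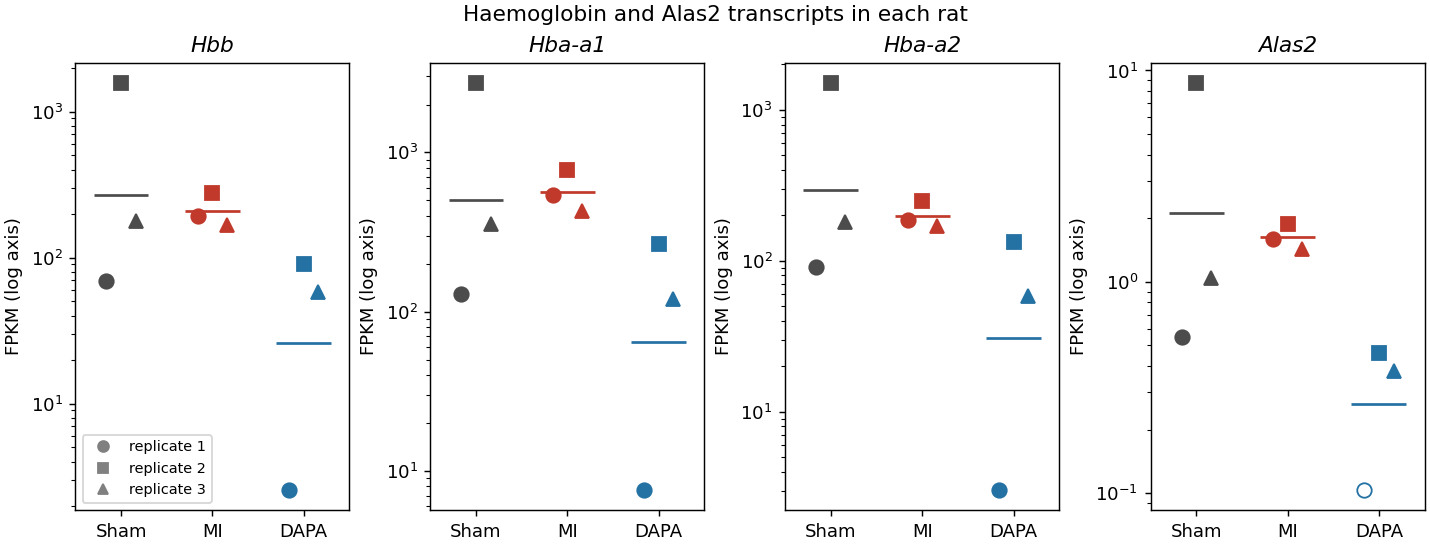
FPKM of Hbb, Hba-a1, Hba-a2 and Alas2 (logarithmic y axis) in each of the 9 rats, by group (x axis), where points are single rats and bars are group means taken on log2(FPKM + 1). For Hbb the 3 MI rats lie between 166 and 279 FPKM, whereas Sham runs from 69.1 to 1558 and MI + DAPA (1st d) from 2.57 to 90.8; the open circle is Alas2 at 0, drawn at the level of 3 reads.

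Group means hide this spread. Mean Hbb was 602 ± 830 FPKM (SD, n = 3) in Sham, 212 ± 59.0 (SD, n = 3) in MI and 50.4 ± 44.6 (SD, n = 3) in MI + DAPA (1st d). Mean Hba-a1 was 1067 ± 1431, 583 ± 177 and 131 ± 129 FPKM (SD, n = 3 each) in the same order. The corresponding means were 591 ± 788, 201 ± 40.7 and 64.5 ± 64.9 FPKM (SD, n = 3 each) for Hba-a2. For Alas2 they were 3.42 ± 4.56, 1.64 ± 0.225 and 0.281 ± 0.247 FPKM (SD, n = 3 each). In Sham the SD exceeded the mean for all 4 genes. Within Sham the highest rat exceeded the lowest 22.6-fold for Hbb, 20.9-fold for Hba-a1, 16.4-fold for Hba-a2 and 15.9-fold for Alas2. Within MI the same ratios were 1.68, 1.80, 1.45 and 1.31, and within MI + DAPA (1st d) they were 35.3 for Hbb, 34.8 for Hba-a1 and 43.4 for Hba-a2.

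The single rats that set these ranges were far from their nearest neighbour. Sham 2 exceeded the next Sham rat 8.69-fold for Hbb, 7.59-fold for Hba-a1, 8.24-fold for Hba-a2 and 8.36-fold for Alas2. In MI + DAPA (1st d), the lower of the other two rats exceeded rat 1 by 22.5-fold for Hbb, 15.6-fold for Hba-a1 and 19.1-fold for Hba-a2. All 4 genes were highest of the 9 rats in Sham 2 and lowest in MI + DAPA (1st d) 1, a pattern shown by 4.29% of the 14157 genes that reached an FPKM of 1 in 3 or more rats. Of these genes 20.0% were highest in Sham 2 and 10.4% were lowest in MI + DAPA (1st d) 1. By the SD of log2(FPKM + 1) within a group, Hbb ranked 21st of these genes in Sham and 13th in MI + DAPA (1st d), where the SD was 2.54, but 3259th in MI, where it was 0.38. The median SD over these genes was 0.26 in Sham, 0.21 in MI and 0.25 in MI + DAPA (1st d).

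The first comparison, MI vs. Sham, addresses the change that follows infarction. Values of all 4 genes overlapped between the groups, with every MI rat above Sham 1 and below Sham 2. The log2 fold changes on log2(FPKM + 1) were -0.37 (SE 1.01) for Hbb, 0.17 (SE 0.99) for Hba-a1, -0.56 (SE 0.92) for Hba-a2 and -0.25 (SE 0.64) for Alas2, each smaller than its SE. Without Sham 2 they were 0.89, 1.39, 0.62 and 0.57, in the same order, so the direction turned for Hbb, Hba-a2 and Alas2. For Hba-a1, which lay closest to 0, the sign turned instead without Sham 1 (-0.80), Sham 3 (-0.07) or MI 2 (-0.06). It also turned for Hbb, Hba-a2 and Alas2 when values were scaled to all recovered reads, to 0.73, 0.55 and 0.40, but under that scaling the median of all genes itself moved to 0.92. Relative to that median the values were -0.19 for Hbb, 0.36 for Hba-a1, -0.37 for Hba-a2 and -0.52 for Alas2. No direction after infarction can be given for these transcripts from 3 rats a group.

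The comparison MI + DAPA (1st d) vs. MI sets treated beside untreated rats after infarction. Here the groups did not overlap: for each of the 4 genes all 3 treated rats were below all 3 MI rats, as was true of 7.16% of the 13251 genes tested. Alas2 reached an FPKM of 1 in no treated rat, so it entered this fit only through the MI rats, where it was high. The lowest MI rat exceeded the highest treated rat 1.83-fold for Hbb, 1.62-fold for Hba-a1, 1.29-fold for Hba-a2 and 3.09-fold for Alas2. The log2 fold changes were -2.96 (SE 1.14) for Hbb, -3.12 (SE 1.17) for Hba-a1, -2.65 (SE 1.18) for Hba-a2 and -1.06 (SE 0.23) for Alas2, or 7.77-fold, 8.69-fold, 6.29-fold and 2.08-fold lower on the log2(FPKM + 1) scale, which understates the change of low genes. Much of this size came from 1 rat. Without MI + DAPA (1st d) 1 the log2 fold changes were -1.50 for Hbb, -1.66 for Hba-a1, -1.17 for Hba-a2 and -0.89 for Alas2. In bulk tissue, fewer red cells and less globin mRNA per red cell cannot be told apart. The summed FPKM of cardiomyocyte markers ran from 2262 to 11269 in MI and from 8686 to 18168 in treated rats, and its part was not tested.

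Against Sham, the treated rats overlapped for the 3 globin genes, because Sham 1 was below MI + DAPA (1st d) 2. Alas2 alone was below every Sham rat in every treated rat, as were 23.3% of the 13359 genes tested, although Alas2 itself was too low to enter that fit. The log2 fold changes for MI + DAPA (1st d) vs. Sham were -3.33 (SE 1.43) for Hbb, -2.95 (SE 1.43) for Hba-a1 and -3.21 (SE 1.41) for Hba-a2. They rested on 2 rats at opposite ends. For Hbb the value was -1.88 without MI + DAPA (1st d) 1 and -2.07 without Sham 2. Without both, an alternative chosen after seeing the data, it was -0.61, with -0.27 for Hba-a1 and -0.55 for Hba-a2. This comparison shares its treated rats with the preceding one and its Sham rats with the first, so the 3 are not independent.

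**Figure D2:**
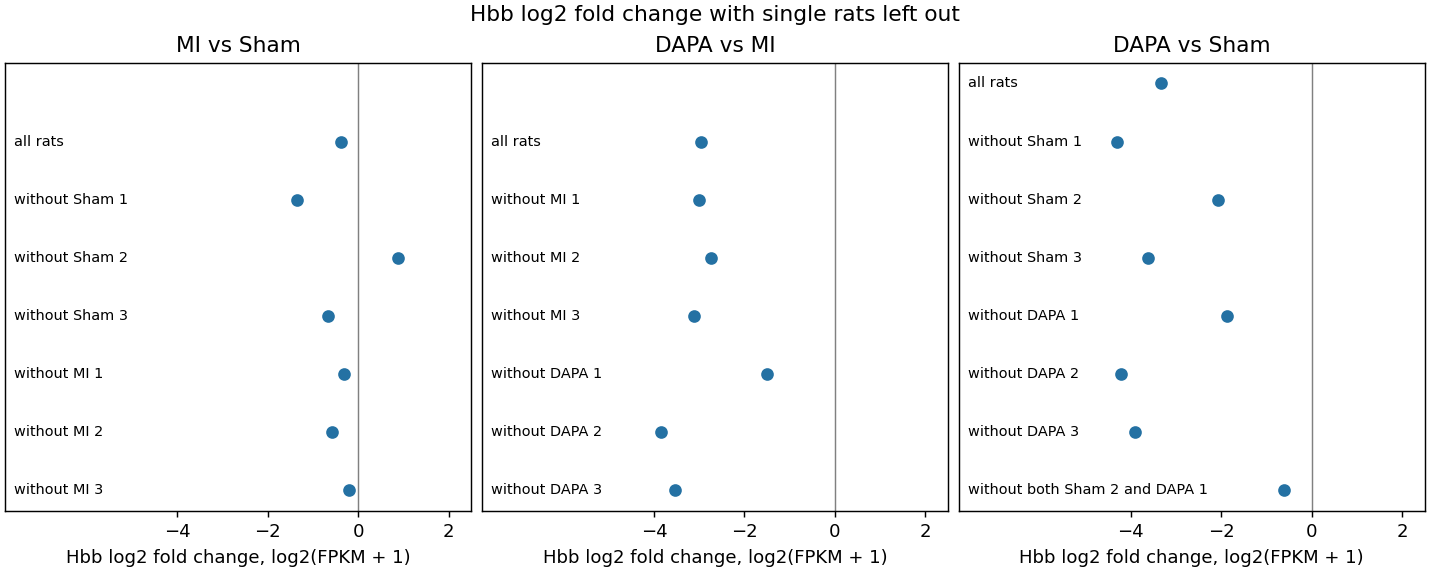
Log2 fold change of Hbb (x axis, log2(FPKM + 1) scale) in each comparison, with 1 point for all rats and 1 for each omission named beside it (DAPA is group MI + DAPA (1st d)). Without Sham 2 the MI vs. Sham value of Hbb goes from -0.37 to 0.89, and without MI + DAPA (1st d) 1 the MI + DAPA (1st d) vs. MI value goes from -2.96 to -1.50.

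The α-globin and β-globin genes rose and fell together from rat to rat, and so did their relatives. These relatives were taken as Hbb-b1 and LOC100134871, of the β type, and Hba-a3, of the α type. The deposited table does not describe LOC100134871, which was placed there from background knowledge. Added to the 3 globin genes above, these 6 genes took 0.0374%, 0.766% and 0.0912% of the reads outside the mitochondrial genome in Sham rats 1 to 3. They took 0.0932%, 0.126% and 0.0797% in MI and 0.00139%, 0.0479% and 0.0251% in MI + DAPA (1st d). The share in MI + DAPA (1st d) 1 rested on 163 reads, with an exact 95% binomial interval from 0.00118% to 0.00162%, which covers counting error only. In Sham 2 the same genes took 50240 reads, so even the highest share stayed below 1% of these reads. Group means were 0.298% ± 0.406 (SD, n = 3) in Sham, 0.0997% ± 0.0239 (SD, n = 3) in MI and 0.0248% ± 0.0233 (SD, n = 3) in MI + DAPA (1st d).

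LOC100134871 stood at 98.0, 2209 and 243 FPKM in Sham, 150, 219 and 141 FPKM in MI and 2.14, 74.8 and 42.0 FPKM in MI + DAPA (1st d), close to Hbb in each rat. Hbb-b1 was lower, at 2.19, 62.6 and 10.7 FPKM in Sham, 3.86, 5.52 and 3.08 FPKM in MI and 0.403, 6.81 and 2.04 FPKM in MI + DAPA (1st d). Hba-a3 stood at 4.90, 139 and 15.1 FPKM in Sham, 13.0, 14.1 and 10.3 FPKM in MI and 0.848, 9.72 and 3.48 FPKM in MI + DAPA (1st d). All 3 were again highest in Sham 2 and lowest in MI + DAPA (1st d) 1. Unlike the others, Hbb-b1 was higher in 1 treated rat than in every MI rat. The embryonic chains Hbe1, Hbe2, Hbg1 and Hbz were listed at 0 in all 9 rats.

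The balance between related globin genes also differed between groups. The FPKM ratio of LOC100134871 to Hbb was 1.35 to 1.42 in Sham, 0.778 to 0.849 in MI and 0.725 to 0.832 in MI + DAPA (1st d), so Sham did not overlap with either other group, whereas the other two overlapped. As a share of the reads of both genes, LOC100134871 took 57.3%, 57.2% and 56.1% in Sham, 42.3%, 42.6% and 44.5% in MI and 44.0%, 43.7% and 40.6% in MI + DAPA (1st d). For MI + DAPA (1st d) 1 that share had an exact 95% binomial interval of 30.0% to 58.7%, because few reads stood behind it. Hba-a2 was 0.509 to 0.704 of Hba-a1 in Sham, 0.318 to 0.396 in MI and 0.399 to 0.498 in MI + DAPA (1st d), by FPKM. Hba-a1 was 1.74 to 1.99 times Hbb in Sham, 2.60 to 2.81 times in MI and 2.06 to 2.97 times in MI + DAPA (1st d). Hbb-b1 was 0.0317 to 0.0594 of Hbb in Sham, 0.0195 on average in MI and 0.0353 to 0.157 in MI + DAPA (1st d), and Hba-a3 was 0.0378 to 0.0512, 0.0182 to 0.0241 and 0.0291 to 0.111 of Hba-a1. For both, the treated rats were above every MI rat, by 1.94 and 1.16 in mean log2 ratio. The highest of these ratios, in MI + DAPA (1st d) 1, rested on 9 reads of Hbb-b1 and 6 of Hba-a3. From Sham to MI the mean log2 ratio changed by -0.80 for LOC100134871 over Hbb, -0.73 for Hba-a2 over Hba-a1 and 0.55 for Hba-a1 over Hbb. The ratio of LOC100134871 to Hbb was thus steady between the Sham rats although their Hbb levels spanned 22.6-fold. Reads of closely similar copies can be split between them by the counting, so each copy's level is uncertain. How alike the transcripts are was not measured here. The share of reads on the mitochondrial genome moved with the same groups, at 61.1% to 66.9% in Sham, 7.07% to 19.1% in MI and 17.5% to 32.0% in MI + DAPA (1st d), and its part in these ratios was not tested.

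**Figure D3:**
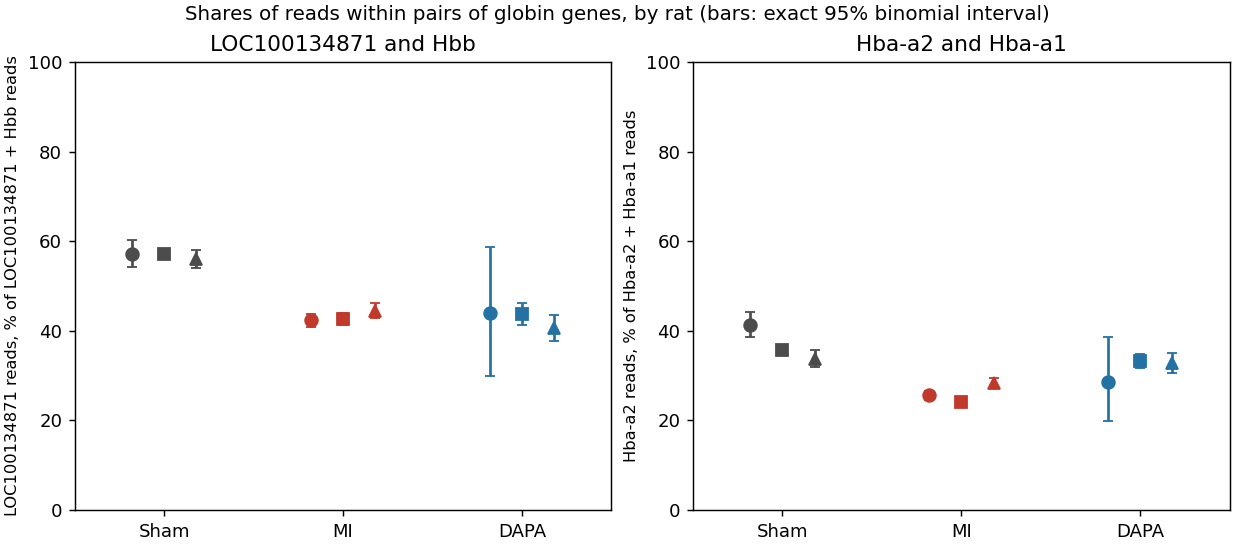
Share of reads (y axis, %) taken by 1 gene of each globin pair in each rat, by group (x axis, DAPA being MI + DAPA (1st d)), with exact 95% binomial intervals as bars and rats 1 to 3 as circle, square and triangle. LOC100134871 took 56.1% to 57.3% of the reads of LOC100134871 and Hbb in Sham and 42.3% to 44.5% in MI.

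Genes that vary with globin across the 9 rats were found by the Pearson correlation of log2(FPKM + 1) with that of Hbb, over 5349 genes with an SD of at least 0.5. It was 0.996 for Hba-a2, 0.993 for Hba-a1 and 0.88 for Alas2. Among other genes the 10 highest were LOC100134871 (0.99), Hba-a3 (0.94), LOC103694857 (0.93), AC141220.3 (0.92), the mast cell protease Mcpt1l1 (0.89), the chromatin protein gene Hmgb2 (0.88), Hbb-b1 (0.86), the securin gene Pttg1 (0.85), the mast cell tryptase Tpsb2 (0.84) and the mitotic kinesin Kif22 (0.84). These coefficients describe 9 points, which share libraries and group differences, and no p is given. Hmgb2, Pttg1 and Kif22 are known from dividing cells.

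Other genes of red cells differed in how closely they followed globin, and their list was near the share of all genes. Of 32 genes found for the red cell membrane and cytosol, 15 were tested in the 9 rats. Of these, 4 (26.7%) were highest in Sham 2, beside 20.0% of 14157 genes. In MI + DAPA (1st d) 1, 1 (6.67%) was lowest, beside 10.4%. Ahsp, the chaperone of free α-globin, stood at 1.54, 5.94 and 0 FPKM in Sham, 0.929, 0.915 and 0.375 FPKM in MI and 0.218, 0 and 0.794 FPKM in MI + DAPA (1st d), on 0 to 34 reads. Slc4a1, the band 3 anion exchanger of the red cell membrane, stood at 0, 1.65 and 0.0235 FPKM in Sham, 0.193, 0.0586 and 0.745 FPKM in MI and 0.226, 0.0386 and 0.800 FPKM in MI + DAPA (1st d). Both were highest in Sham 2, but neither was lowest in MI + DAPA (1st d) 1. Gata1 and Rhag, the latter a subunit of the Rh complex, were listed at 0 in all rats. The 5 most abundant genes of the list, Aqp1, Bnip3l, Car2, Gypc and Fbxo7, are also made by cells other than red cells. Their correlations with Hbb over the 9 rats were 0.06, 0.37, 0.38, -0.34 and 0.44.

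Over the 31 genes of this list that were above 0 in any rat, the correlation with Hbb ran from -0.65 to 0.73, with a median of 0.10, and it exceeded 0.5 for 5 genes. The median over 14157 genes was -0.02, and 1731 of them exceeded 0.5. The genes named next were chosen after their values were seen. Those highest in the list were Kel at 0.73, a blood group protein, Add2 at 0.72 and Epb41 at 0.71, the latter both of the membrane skeleton. Epb41, or protein 4.1, stood at 8.76, 14.2 and 12.6 FPKM in Sham, 5.66, 7.64 and 6.84 FPKM in MI and 4.83, 7.70 and 5.75 FPKM in MI + DAPA (1st d), so it too was highest in Sham 2 and lowest in MI + DAPA (1st d) 1. Kel and Add2 stayed at or below 0.517 and 0.288 FPKM. Of the erythroid transcription factors, 9 could be correlated, with a range of -0.59 to 0.71, a median of 0.29 and 3 above 0.5. Those 3 were Klf1 (0.71), Hemgn (0.64) and Gfi1b (0.62). Klf1 stood at 0.505, 1.35 and 1.05 FPKM in Sham, 0.137, 0.337 and 0.448 FPKM in MI and 0.0400, 0.288 and 0.110 FPKM in MI + DAPA (1st d), again with the extremes in Sham 2 and MI + DAPA (1st d) 1. It rested on 1 to 21 reads a rat, and Hemgn and Gfi1b were listed at 0 in 7 of the 9 rats. The 4 most abundant factors, Lmo2, Zfpm1, Gata2 and Tal1, had correlations of 0.23, 0.19, 0.33 and 0.29. Nfe2 was at -0.04 and Bcl11a at -0.59. Nfe2 stood at 1.14 FPKM in MI + DAPA (1st d) 1, the rat with the lowest globin, and at 1.00 FPKM in Sham 2.

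Lists of related genes were set beside the members. In MI vs. Sham, limma called 1634 genes higher (12.1% of the 13485 tested) and 1390 lower (10.3%), 22.4% in all. A call needed an unadjusted p below 0.05 with an absolute log2 change above 1. With Benjamini-Hochberg adjusted limma p-values 1556 were higher and 1339 lower (21.5% in all). In the 3 lists of other globin chains, erythroid transcription factors and red cell membrane and cytosol genes, 25 were tested and 5 were called, all lower, and 4 of them passed after adjustment. The list median was -0.52 against -0.01 over all genes tested. The globin chain called was LOC103694855, at -1.66 (SE 0.67), which did not pass after adjustment. The red cell genes called were Car2, a carbonic anhydrase, at -2.73 (SE 0.18), and Aqp1, a water channel of red cells and endothelium, at -1.98 (SE 0.28). The transcription factors called were Tal1 at -1.70 (SE 0.17) and Gata2 at -1.90 (SE 0.21), both also active in endothelium. Car2 fell from 33.6, 33.6 and 45.3 FPKM in Sham to 5.40, 4.87 and 4.04 FPKM in MI. Aqp1 fell from 710, 441 and 914 FPKM to 162, 149 and 192 FPKM. Aqp1 and Car2 were not highest in Sham 2. In the same comparison 6 of 9 endothelial genes tested were lower and none was higher, among them Egfl7 at -2.55 (SE 0.20), Kdr at -1.91 (SE 0.31) and Emcn at -1.74 (SE 0.25), with the summed list at 1312 to 1690 FPKM in Sham and 437 to 613 FPKM in MI, and its part in these changes was not tested.

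With treatment (MI + DAPA (1st d) vs. MI), limma called 126 genes higher (0.951% of the 13251 tested) and 147 lower (1.11%), 2.06% in all, and 0 (0%) passed after Benjamini-Hochberg adjustment of the limma p-values, with 1125 at an unadjusted p under 0.05. Of 4 other globin chains tested 3 were called lower, namely LOC100134871 at -2.95 (SE 1.10), LOC103694857 at -1.93 (SE 0.52) and Hba-a3 at -1.59 (SE 0.58), while Hbb-b1 was at -0.65 (SE 0.58). They are relatives of the 3 globin genes, can share reads with them and vary with them in the same rats, so they add no independent measure. LOC100134871, LOC103694857 and LOC103694855 carry provisional symbols that the deposited table does not describe, so their placing among the globins is background knowledge. Of 5 erythroid transcription factors and 15 red cell genes tested, none was called. Their medians were 0.10 and 0.00, beside -0.02 over all genes tested. Car2 stood at 4.58, 6.53 and 9.24 FPKM, Tal1 at 4.62, 5.29 and 5.25 FPKM and Bpgm, which makes the oxygen-affinity regulator 2,3-bisphosphoglycerate, at 14.2, 12.5 and 13.3 FPKM in the treated rats. Rat 1, which nearly lacked globin reads, was lowest of the 3 in Car2 and Tal1 and highest in Bpgm.

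Between treated and Sham rats, limma called 1274 genes higher (9.54% of the 13359 tested) and 1090 lower (8.16%), 17.7% in all, and 2168 (16.2%) with Benjamini-Hochberg adjusted p-values. In the 3 lists 7 of 25 tested genes were called, all lower: the globin chains LOC100134871 at -4.12 (SE 1.41), LOC103694855 at -2.79 (SE 0.61) and LOC103694857 at -2.45 (SE 0.99), and again Car2, Aqp1, Tal1 and Gata2. The latter 4 stood at -2.33 (SE 0.25), -1.27 (SE 0.37), -1.48 (SE 0.17) and -1.43 (SE 0.20). After adjustment 5 genes passed, these 4 and LOC103694855, whereas LOC100134871 and LOC103694857 did not. LOC103694855 reached an FPKM of 1 in no treated rat, so it entered this fit only through the Sham rats. The globin chains Hba-a3 at -2.41 (SE 1.12) and Hbb-b1 at -2.05 (SE 1.05) were not called. In this comparison 5 of 9 endothelial genes tested were also lower. Without Sham 2 the count over the 3 lists was 4.

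Among genes that make haem, 2 of the 12 tested were called in MI vs. Sham, where 22.4% of all genes were. Alas1 rose by 1.06 (SE 0.29) on the log2 scale and Alad, the second enzyme of the pathway, fell by 1.12 (SE 0.19). Alas1 stood at 11.8, 7.72 and 11.7 FPKM in Sham, 23.4, 15.2 and 31.5 FPKM in MI and 36.3, 36.3 and 26.6 FPKM in MI + DAPA (1st d); its mean was highest in the group in which that of Alas2 was lowest. Of 11 genes that clear haemoglobin and haem, 4 rose and 2 fell, beside 12.1% and 10.3% of all genes. Hmox1, which opens the haem ring, rose by 1.92 (SE 0.30), and Cd163, the macrophage receptor for haemoglobin bound to haptoglobin, by 1.70 (SE 0.27). Lrp1, a receptor for haem bound to haemopexin among other ligands, rose by 2.85 (SE 0.25), and Slc48a1, a haem transporter, by 1.35 (SE 0.23). Hp, which encodes haptoglobin, fell by 1.76 (SE 0.28), and Flvcr2 fell by 1.32 (SE 0.30). Hmox1 stood at 11.3, 7.65 and 4.86 FPKM in Sham, 30.2, 41.1 and 24.8 FPKM in MI and 24.6, 15.3 and 17.5 FPKM in MI + DAPA (1st d). Its Sham values did not follow globin, as Sham 2 was in the middle. All 9 macrophage genes tested were higher in MI than in Sham, led by Lyz2 at 3.58 (SE 0.55), C1qb at 3.22 (SE 0.33) and C1qa at 3.12 (SE 0.47), with a summed level of 157 to 500 FPKM in Sham and 1959 to 3555 FPKM in MI, and their part in these changes was not tested.

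Globins outside the red cell behaved otherwise. Cygb, the cytoglobin of fibroblast-like cells, rose by 1.94 (SE 0.22) in MI vs. Sham and by 1.90 (SE 0.24) between Sham and treated rats, with -0.04 (SE 0.19) between MI and treated rats. Mb, the myoglobin that stores oxygen in heart muscle, stood at 2268, 689 and 4140 FPKM in MI and 5770, 7367 and 3448 FPKM in treated rats and was called in neither MI vs. Sham nor treated vs. MI, but rose by 1.28 (SE 0.36) between Sham and treated rats.

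Between treated and MI rats none of the 12 haem synthesis or 9 clearance genes tested was called, although Cd163 at -0.98 (SE 0.26) and Hmox1 at -0.71 (SE 0.24) were below every MI rat in every treated rat, as were Cpox at -0.30 (SE 0.15) and 7.16% of all genes tested. The macrophage list had a median of -0.73 in this comparison, with Mrc1 at -0.96 (SE 0.27) and Lyz2 at -0.69 (SE 0.34) also not overlapping, and its part was not tested. Against Sham, in the treated rats, Alas1 rose by 1.59 (SE 0.21). Lrp1 rose by 2.43 (SE 0.27), Hmox1 by 1.21 (SE 0.30) and Slc48a1 by 1.19 (SE 0.25), while Hp fell by 1.90 (SE 0.28) and Flvcr2 fell by 1.42 (SE 0.33). Cd163 was at 0.72 (SE 0.20) in that comparison, below the fold threshold.

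Among other cells that travel in blood, a few platelet genes, most of them at few reads, varied with Hbb, while the summed levels did not span a like range. The summed platelet list ran from 69.9 to 117 FPKM in Sham, 110 to 172 FPKM in MI and 78.8 to 106 FPKM in MI + DAPA (1st d). In that list Gp1bb and Gp5 were listed at 0 in all rats, and Pf4 made up most of each sum. Pf4 stood at 58.9 to 98.9 FPKM in Sham, 101 to 158 FPKM in MI and 70.1 to 94.9 FPKM in MI + DAPA (1st d). The neutrophil list, in which RatNP-3b and Cd177 were listed at 0, ran from 32.7 to 115 FPKM in Sham, 39.3 to 110 FPKM in MI and 32.0 to 225 FPKM in MI + DAPA (1st d). The highest of its 9 sums, 225 FPKM, belonged to MI + DAPA (1st d) 1, the rat with the lowest globin. In that rat S100a8 and S100a9, which encode the subunits of calprotectin, stood at 53.4 and 116 FPKM, against 4.13 and 5.87 FPKM for S100a8 and 7.31 and 25.3 FPKM for S100a9 in the other treated rats. Within Sham, both sums were highest in rat 2. The correlation with Hbb over the 9 rats ran from -0.60 to 0.39 over 17 neutrophil genes, with a median of -0.05, and was -0.44 for S100a8 and -0.48 for S100a9. Over 13 platelet genes it ran from -0.49 to 0.75, with a median of 0.31, and 4 exceeded 0.5, which were Itga2b (0.75), Gp6 (0.68), Tubb1 (0.60) and Gp9 (0.56). Of 14157 genes that reached an FPKM of 1 in 3 or more rats, 1731 exceeded 0.5. Gp6 and Tubb1 rested on at most 5 reads a rat and Gp9 on at most 7, so their correlations are imprecise. Itga2b, the integrin chain of the fibrinogen receptor, stood at 2.28, 4.21 and 2.10 FPKM in Sham, 1.19, 2.26 and 1.75 FPKM in MI and 0.899, 0.980 and 1.71 FPKM in MI + DAPA (1st d). It was highest in Sham 2 and lowest in MI + DAPA (1st d) 1, as the globins were. These genes were likewise picked after their values were seen. The platelet chemokine gene Pf4 was at 0.31. Of 6 neutrophil genes tested in MI vs. Sham, Csf3r at 1.08 (SE 0.34) and Fcnb at 1.46 (SE 0.21) were called higher. Of all genes 12.1% were. Between treated and MI rats 0 of 7 were called, beside 2.06% of all genes. Between treated and Sham rats Fcnb was higher and Lcn2 lower of 5, beside 9.54% and 8.16%. Of 6 platelet genes tested in MI vs. Sham, P2ry12 at 1.18 (SE 0.38) was higher and Treml1 at -1.14 (SE 0.29) lower. Of all genes 12.1% were higher and 10.3% lower. No platelet gene was called between treated and MI rats (2.06% of all genes) or between treated and Sham rats (17.7%).

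**Figure D4:**
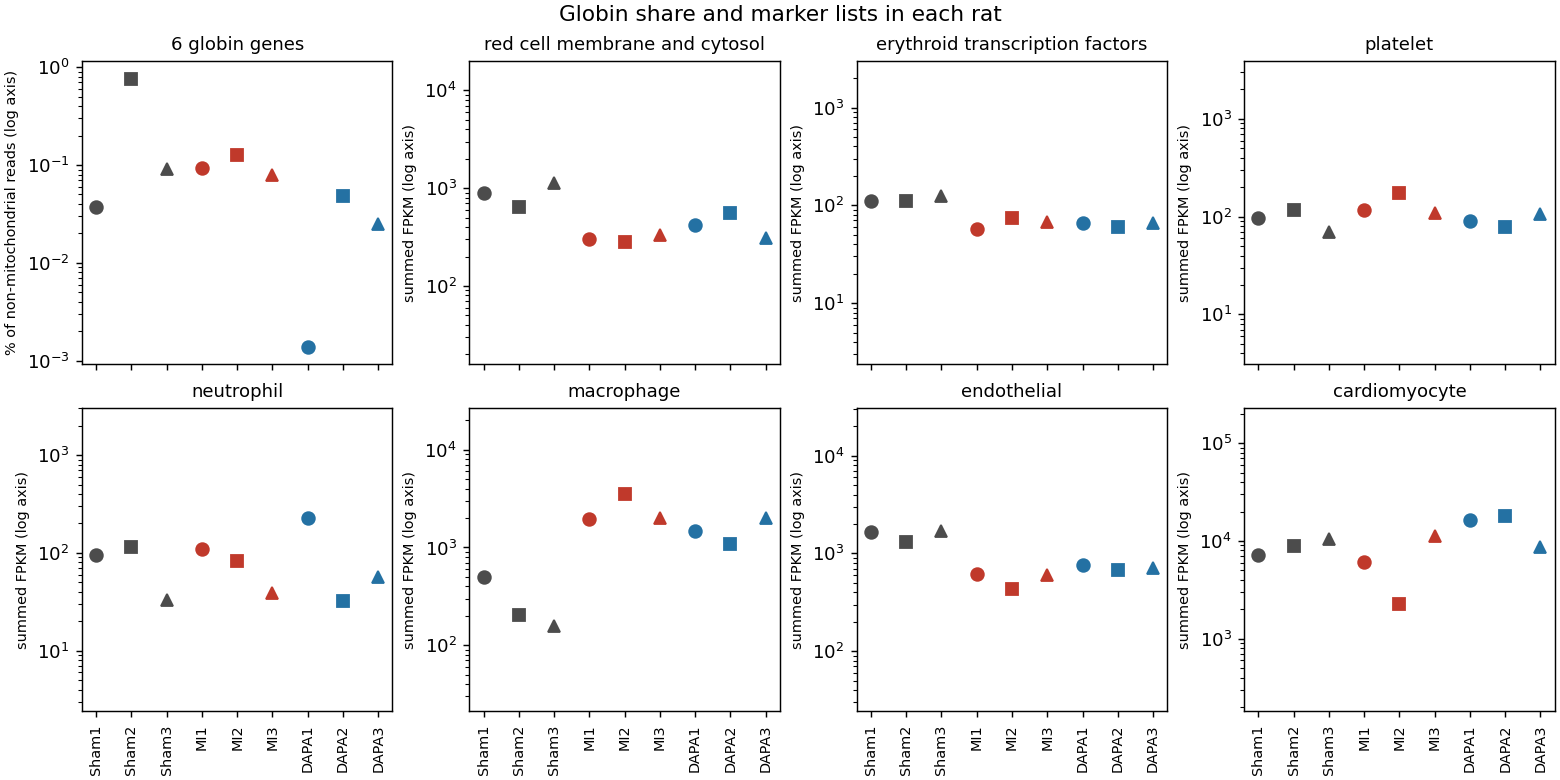
Summed level of each marker list in each rat (logarithmic y axes that all span the same fold range, in FPKM, or in % of reads outside the mitochondrial genome for the 6 globin genes), with 1 point for each rat (x axis, DAPA being MI + DAPA (1st d)). The globin share runs from 0.00139% to 0.766%, whereas the platelet sum, most of it Pf4, runs from 69.9 to 172 FPKM. The neutrophil sum is highest, at 225 FPKM, in the rat with the lowest globin. Most of each red cell membrane and cytosol sum is Aqp1.

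All 10 cardiomyocyte markers were found and tested in each comparison. Their sum ran from 7115 to 10441 FPKM in Sham, 2262 to 11269 FPKM in MI and 8686 to 18168 FPKM in MI + DAPA (1st d). In MI vs. Sham 1 gene of this list was called higher and 2 lower, beside 12.1% and 10.3% of all genes. Between treated and MI rats 2 were called higher, beside 0.951% of all genes. Between treated and Sham rats 5 were called higher and 1 lower, beside 9.54% and 8.16%. The summed B and plasma cell list stood at 35.9, 3855 and 670 FPKM in MI rats 1 to 3, so MI 2 stood apart, against 6.07 to 12.8 FPKM in Sham and 11.6 to 16.9 FPKM in MI + DAPA (1st d). Of this list 2 of 4 tested were higher in MI vs. Sham (12.1% of all genes), 2 of 3 were lower between treated and MI rats (1.11%) and 1 of 2 was higher between treated and Sham rats (9.54%). All 9 macrophage genes tested were higher in treated than in Sham rats and 0 of 9 were called between treated and MI rats, as were 0 of 9 endothelial genes. Endothelial Cldn5 and the iron exporter Slc40a1 were listed at 0 in all rats. Depth was 13597239 to 17210909 recovered reads a rat. Leaving out mitochondrial genome genes, it was 5702454 to 13171891 reads, fewest in Sham.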

How the data were processed

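RNA-seq was carried out by the authors on poly-A selected RNA from the left ventricle of 9 rats, 3 per group, and each column was assigned to its rat by its name. The authors deposited FPKM, already scaled by the authors to transcript length and to a total for each library. The submitters' processing notes name HISAT2 2.0.5, StringTie 1.3.3b, featureCounts 1.5.0-p3 and DESeq2. The genome build is not given in the sources used here, so no coordinate of the deposited genes is printed, and promoters were matched by symbol to RefSeq on GRCr8. The number of columns not used was 0.

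The low FPKM of a gene are whole multiples of a step, which gave the reads behind each value. Each of the 18896 genes seen in 4 or more libraries came out at whole reads, within 0.02 of a read. The smallest share a library can show, 3 reads of its total, lay between 1.74e-05% and 2.21e-05%. Intervals and floors cover counting error only. Sham libraries had the fewest reads outside the mitochondrial genome, so their low values are the least precise.

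Differences were fitted with limma 3.58.1 in R 4.3.3 on log2(FPKM + 1), with a variance trend, only the 6 rats of a comparison and no covariate. Genes that reached an FPKM of 1 in 3 or more of the 6 rats entered. A call needed an unadjusted p below 0.05 and an absolute log2 change above 1, the thresholds of the study, with Benjamini-Hochberg adjusted counts beside. Each column was taken as a separate animal, as the paper states 3 biological replicates a group. Each sample title carries a pair of names, and the labels do not say what the pair stands for. The members and the 12 gene lists were chosen with earlier results of these data known, and the 4 members were given no p. Named genes were the members, list genes called in a comparison (where over 6 of a list were called, the 3 with the largest change in each direction; those of the cardiomyocyte, B cell and, against Sham after treatment, endothelial and macrophage lists are given as counts), the most abundant genes of the erythroid lists and the 10 genes most like Hbb. A few low genes were chosen after their values were seen. Recovery and fit were tested on simulated data. Python 3.11.15 with pandas 2.3.3, scipy 1.17.1 and matplotlib 3.10.9 was used. The alternatives were another pseudocount, no filter, all rats in 1 fit, a replicate block, other scalings, adjusted p and leaving out each rat.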

Additional observations from a re-analysis of the deposited data

How the results depend on the processing

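Leaving out 1 rat at a time, the genes called between treated and MI rats ranged from 111 (without MI 2) to 561 (without MI 3). Those of the 3 erythroid lists ranged from 1 (without MI 1 or MI 2) to 4 in that comparison and from 4 (without Sham 2) to 10 in MI + DAPA (1st d) vs. Sham. Scaled to all recovered reads, 6389 genes were called in MI vs. Sham (6099 higher and 290 lower) and 4666 between treated and Sham rats (4433 higher and 233 lower), with 3 of the erythroid lists called in each. That scaling moved the median of all genes to 0.92 and 0.74, since the authors' divisors per recovered read are smallest in Sham. Between treated and MI rats, 1 gene of the erythroid lists was called with all 9 rats in 1 fit, and 0 of these genes and 0 of all genes with adjusted p. The Alas2 log2 fold change in that comparison was -2.53 with a pseudocount of 0.1, -1.30 scaled to all recovered reads, -1.33 relative to the endothelial list and -2.33 relative to the cardiomyocyte list. In MI vs. Sham it was 0.85 relative to the endothelial list, where Hbb was at 0.72, Hba-a1 at 1.27 and Hba-a2 at 0.54. The sign thus turned for Alas2, Hbb and Hba-a2. In MI + DAPA (1st d) vs. MI, relative to the cardiomyocyte list, Hbb was at -4.23, Hba-a1 at -4.39 and Hba-a2 at -3.92. The cause was not tested. Without both Sham 2 and MI + DAPA (1st d) 1, the MI + DAPA (1st d) vs. Sham values were -0.61 for Hbb, -0.27 for Hba-a1 and -0.55 for Hba-a2. Replicate numbers are shared by the groups only as numbers: same-numbered rats correlated at -0.016 on average (-0.304 to 0.195 over 9 pairs) and rats of different numbers at 0.0081. Under a replicate block 3044 genes were called in MI vs. Sham, 217 between treated and MI rats and 2404 between treated and Sham rats. Of the values with 1 rat left out, 91 stayed within the spread between rats or, for counts, within 1.5 times, and 8 did not. All 8 were counts of genes. For fold changes this rule could not fail, because leaving out 1 of 3 rats cannot move them beyond a spread that includes that rat. Fold changes whose sign turned are therefore among those that stayed. Under the other settings 120 values stayed within these bounds and 15 did not. Alas2 in MI + DAPA (1st d) vs. MI had no value without an MI rat, since it then failed the filter. With 3 rats a group, an exact permutation test cannot go below 0.1.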
